A study of Mus musculus with 69 samples.

Results

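Mouse lungs 1 day after instillation of the high dose of a nano-sized titanium dioxide (TiO2), NRCWE-025, were set against lungs that received its low dose. The arrays were chosen by their titles, which name the material, the day and the dose: 5 arrays for 162 µg and 5 for 18 µg, or 10 of the 69 arrays in the series. No control array entered the comparison, so it asks how the response depended on dose within a single material. The study as a whole had 2 materials, NRCWE-025 and NRCWE-030, each at doses of 18, 54 and 162 µg beside a vehicle group, and took lungs on day 1 or day 28. All 10 mice were female C57BL/6, aged 5 to 7 weeks when obtained and then acclimatised, and each received 1 dose of particles through the trachea in 2% serum in water. The low dose group therefore carried the vehicle, the handling and the particle itself, at a lower amount. Whole lung RNA of 1 mouse carried Cy5 on every array and was hybridised together with a commercial mouse RNA pool in Cy3, the reference, so dyes were never swapped. A level here is the log2 ratio of lung over reference, in which 1 unit is a doubling, and a difference is the mean level at 162 µg minus that at 18 µg. Since a ratio to the reference depends on how much of a transcript the pool holds, levels are compared between mice and not between genes.

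Particles that reach the alveoli are taken up by resident macrophages, and the lung answers with chemokines, which draw neutrophils and monocytes out of the blood, and with acute phase proteins. The serum amyloid A family leads the murine acute phase response, in which Saa3 is made in many tissues and Saa1 and Saa2 are best known from the liver. Cytokines such as interleukin-6 and interleukin-1 switch these genes on through transcription factors of the C/EBP, STAT and NF-kB families.

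The promoters of the serum amyloid A genes are shown because these genes gave the 3 largest differences between the doses among the acute phase genes. Each line holds the 250 bases before the transcript start, 5′ to 3′ on the strand of the gene, from RefSeq for mouse assembly GRCm38.p6, and capitals mark matches to the C/EBP core TNNNGCAA on either strand. Saa1 lies at chr7:46742981-46743230 on the minus strand, Saa2 at chr7:46751583-46751832 on the plus strand and Saa3 at chr7:46715677-46715926 on the minus strand.
Saa1: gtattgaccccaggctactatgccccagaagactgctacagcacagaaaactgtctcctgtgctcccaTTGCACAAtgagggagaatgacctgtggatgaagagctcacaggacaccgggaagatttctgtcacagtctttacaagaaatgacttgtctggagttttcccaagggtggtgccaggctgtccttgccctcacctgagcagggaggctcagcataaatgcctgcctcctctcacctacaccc
Saa2: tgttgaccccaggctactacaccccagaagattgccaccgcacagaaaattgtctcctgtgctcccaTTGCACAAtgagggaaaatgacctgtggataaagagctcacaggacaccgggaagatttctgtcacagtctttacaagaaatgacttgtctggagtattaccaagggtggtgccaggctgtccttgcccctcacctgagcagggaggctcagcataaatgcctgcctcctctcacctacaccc
Saa3: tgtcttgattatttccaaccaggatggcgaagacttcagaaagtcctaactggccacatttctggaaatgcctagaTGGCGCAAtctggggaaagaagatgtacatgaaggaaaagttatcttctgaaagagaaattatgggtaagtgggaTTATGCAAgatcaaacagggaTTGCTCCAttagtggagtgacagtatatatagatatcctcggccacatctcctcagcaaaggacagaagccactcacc
The core matched once each in Saa1 and Saa2 and at 3 places in Saa3, and 29.3% of 32851 promoter windows of this length held it. A STAT site, TTCNNNGAA, was not found in these 3 windows (7.02% of all windows held it), nor was the NF-kB consensus (5%). A match is a description of the letters and no measurement of binding.

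The arrays of the high dose had a narrower range of ratios. Between 50% and 66% of spots were well above background in Cy5 on the 10 arrays, on average 55.4% ± 3.7 (SD, n = 5) at 162 µg and 60.9% ± 4.2 (SD, n = 5) at 18 µg, a difference with p = 0.0873 in a two-sided exact permutation test. The standard deviation of the log2 ratio over all genes of an array was 0.947 to 1.08 at 162 µg and 1.07 to 1.17 at 18 µg (two-sided exact permutation test, p = 0.0159). Accordingly, genes below the reference tended to have positive differences and genes far above it negative ones: the 1592 genes with a mean level under -1 had a median difference of 0.23, and the 2093 with a mean level over 1 had a median of -0.17. Across genes (no independent replicates) the mean level and the difference correlated at r = -0.48 (Spearman rho -0.52), and at r = -0.01 once all arrays were scaled to the same SD. Values without scaling are given below, and scaled ones stand beside them where they change a direction. The part that this narrower range had in any single result was not tested.

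One low dose library stood apart in heart muscle markers. The median of 15 heart muscle markers was 3.08 in replicate 2 of 18 µg and between -0.07 and 0.36 in the other 9 libraries. The list was lower at the high dose in 14 of 15 genes, with a median of -0.47, which was 0.03 without that replicate. The study's bicluster-9, described below, followed the same library, with an array median of 4.09 there and a median difference of -0.41 that became 0.05 without it. Myom3, a muscle gene named below, was not apart in this library, at 2.09 against 1.86 to 2.03 in the others of its group. Without the library 0 genes were called by limma and 2360 had an unadjusted p under 0.05, 1285 higher and 1075 lower.

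**Figure D1:**
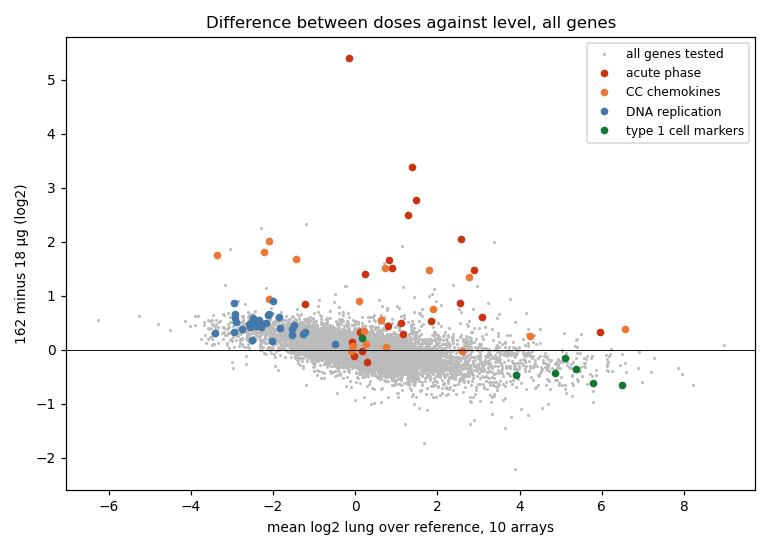
Difference between the doses (162 minus 18 µg, log2, vertical axis) against the mean log2 lung over reference of the 10 arrays (horizontal axis) for 18732 genes, 1 point each, with members of 4 lists coloured. Grey points slope downwards from left to right, and acute phase and CC chemokine genes stand above them with Saa3 at 5.41. DNA replication genes lie above 0 on the left, and alveolar type 1 cell markers lie mostly below 0 on the right.

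Of 18732 genes tested with limma, 0 (0%) differed between the doses at a Benjamini-Hochberg adjusted p under 0.05. The smallest adjusted p was 0.0821, shared by 6 genes, and 20 genes (0.107%) fell under 0.10. At an unadjusted p under 0.05 there were 2386 genes (12.7%), of which 1215 (6.49%) were higher at 162 µg and 1171 (6.25%) lower. The groups did not overlap in 429 genes (2.29%): all 5 mice of the high dose lay above all 5 of the low dose in 184 (0.982%) and below them in 245 (1.31%). The median difference over all genes was 0.01, and differences of 1 unit or more at an unadjusted p under 0.05 were met by 32 genes in the upward direction and 10 in the downward direction. Counts of genes in a list are read against these shares.

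The number of called genes differed between settings. With the slide as a random block, 107 genes passed, 25 higher and 82 lower, and with the slide as a fixed block 0 did. The fixed block compares the doses only within the 3 slides that held both, so its 0 says little. Adding the 54 µg and vehicle arrays of day 1 to the fit gave 58 (11 higher, 47 lower), adding all 14 groups of the series gave 66 (33 in each direction), and a slope over the 3 doses gave 35 (6 higher, 29 lower). Leaving out replicate 1 of 162 µg gave 21 genes, 18 of them higher, and leaving out replicate 5 gave 1. Nxph3 passed in 6 of 25 alternatives, Ccl12 and Hmox1 in 5, and Saa2, Saa3, Ccl17, Frmpd1, Tspan4 and Pde8b in 4. None of these is a call of the comparison as designed, and differences are given below with their standard error (SE) and adjusted p.

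The serum amyloid A genes had the largest differences of the genes named here. Saa3, which codes for the serum amyloid A made outside the liver, stood at -2.18, 1.88, 2.93, 5.54 and 4.56 at 162 µg and at -3.24, -2.32, -2.82, -3.89 and -2.06 at 18 µg. Of the high dose mice, 4 were far above every mouse of the low dose, while the lowest, replicate 1, fell inside the low dose range, so the groups overlapped. The difference was 5.41 (SE 1.13, adjusted p = 0.145), which became 6.59 (SE 0.65, adjusted p = 0.00323) without that replicate. Removing the lowest array of the higher group raises the difference by construction, so this p is no support for a call. With 1 array left out at a time the difference ranged from 4.66 to 6.59.

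Saa1, a circulating serum amyloid A, was at 0.13, 2.58, 2.90, 5.30 and 4.43 at 162 µg and at -0.32, -0.02, -0.42, -0.65 and -0.19 at 18 µg, a difference of 3.39 (SE 0.73, adjusted p = 0.148). Saa2, its close copy, was at 0.43, 2.81, 2.87, 4.21 and 3.98 against 0, 0.24, -0.16, 0.28 and 0.06, a difference of 2.78 (SE 0.56, adjusted p = 0.119). For both genes the groups did not overlap, and replicate 1 of 162 µg was again the lowest of its group by a wide margin. Because the sequences of Saa1 and Saa2 are so alike, their probes may share transcript. Hemopexin (Hpx), the plasma carrier of free heme, was at 0.35, 1.70, 1.59, 3.09 and 1.52 at 162 µg and at 0.13, -0.03, 0.39, 0.11 and 0.05 at 18 µg, with a difference of 1.52 (SE 0.37, adjusted p = 0.169). A single pair of mice, again with replicate 1 of the high dose, kept the groups of Hpx from separating.

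The low dose sat at the level of the vehicle for these genes and the middle dose lay between. Saa3 averaged -2.62 ± 0.48 (SD, n = 5) in vehicle and -0.14 ± 2.28 (SD, n = 5) at 54 µg, and Saa1 averaged -0.16 ± 0.24 and 1.00 ± 1.27 (SD, n = 5). The SD at 54 µg was larger than at 18 µg for these genes and smaller than at 162 µg, where it was 3 for Saa3 and 1.98 for Saa1. These levels are descriptions, without a test.

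Of the 22 acute phase genes tested, 19 were higher at 162 µg, 13 of them at an unadjusted p under 0.05 (6.49% of all genes were), and 1 was lower. The median difference of the list was 0.73, against 0.01 over all genes, and 0.91 with the arrays scaled to the same SD. List medians by array were 0.28, 1.67, 1.62, 2.82 and 1.84 at 162 µg and between 0.11 and 0.26 at 18 µg, so every high dose mouse was above the low dose range, replicate 1 barely. Without replicate 1 of 162 µg the list median was 0.92. In that setting 7 members passed the adjusted threshold, and 21 of all 18732 genes did. Replicate 1 was the lowest array of its dose for this list, so these calls are no support. Without replicate 4, the highest array, the median was 0.56. Orm1, an alpha-1-acid glycoprotein named here after its values were seen, was not well above background on any array of 18 µg and was so on 4 of 5 at 162 µg, which makes it at least 2.94-fold higher (adjusted p = 0.211).

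**Figure D2:**
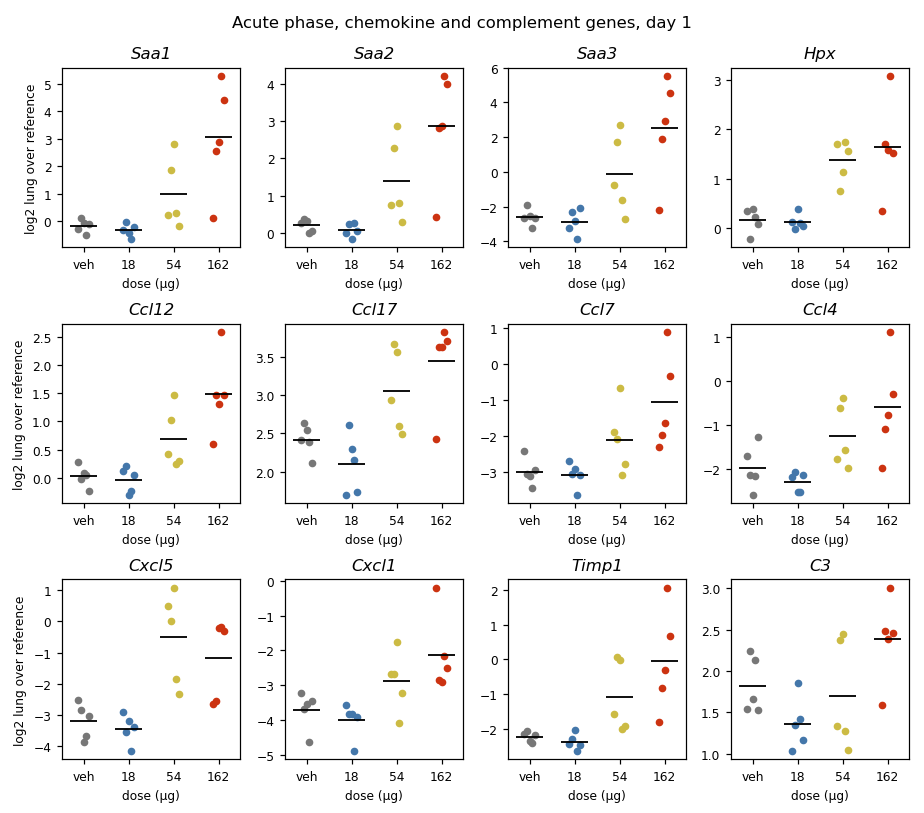
Log2 lung over reference (vertical axes, 1 scale per panel) of 12 acute phase, chemokine and complement genes on day 1 in vehicle (veh) and at 18, 54 and 162 µg of NRCWE-025, with 1 point per mouse and a bar at the mean of 5. The 18 µg points lie at the vehicle level, the 162 µg points are spread upwards, and 1 mouse at 162 µg is close to the low dose in Saa1, Saa2, Saa3 and Hpx.

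Chemokines of the CC family, which attract monocytes and lymphocytes, followed. Ccl12, a ligand of CCR2, was at 0.59, 1.46, 1.30, 2.59 and 1.46 at 162 µg and at 0.12, 0.21, -0.31, -0.24 and 0.04 at 18 µg, a difference of 1.52 (SE 0.28, adjusted p = 0.109). Every high dose mouse exceeded every low dose mouse, and the means at 54 µg and in vehicle were 0.69 and 0.03. Ccl17, a ligand of CCR4, was at 2.43, 3.63, 3.63, 3.83 and 3.71 against 1.69, 2.61, 2.3, 2.15 and 1.73, a difference of 1.35 (SE 0.26, adjusted p = 0.113). Here 4 of the high dose mice lay within 0.2 of each other and replicate 1 fell among the low dose values. Ccl7, another ligand of CCR2, was at -2.31, -1.98, -1.66, 0.89 and -0.33 against -2.72, -3.07, -2.93, -3.66 and -3.10 (difference 2.02, SE 0.51, adjusted p = 0.179), and Ccl4, an attractant of macrophages, differed by 1.69 (SE 0.43, adjusted p = 0.179). Neither of the last pair overlapped between doses, with replicate 4 of 162 µg the highest in both. Of the 19 CC chemokines, 17 were higher and 10 had an unadjusted p under 0.05, all in the upward direction. Their median difference was 0.76, 0.92 after scaling to the same SD, 0.99 without replicate 1 of 162 µg and 0.43 without replicate 4.

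Among the 17 CXC chemokines, 13 were higher, 6 at an unadjusted p under 0.05, and 1 was lower at that threshold, with a median of 0.27, which was 0.13 without replicate 4 of 162 µg. Cxcl5, which attracts neutrophils, was at -2.65, -2.55, -0.20, -0.19 and -0.30 at 162 µg and at -2.89, -3.55, -3.19, -4.15 and -3.38 at 18 µg, a difference of 2.26 (SE 0.51, adjusted p = 0.16). The high dose split into 3 mice near -0.2 and a pair close to the low dose, without overlap. Cxcl1, also a neutrophil attractant, was at -0.20, -2.86, -2.91, -2.17 and -2.51 against -3.57, -3.81, -3.81, -4.89 and -3.90 (difference 1.87, SE 0.46, adjusted p = 0.171). In contrast to the acute phase genes, replicate 1 of 162 µg was the highest for Cxcl1. Cxcl3 was well above background on 3 arrays at 162 µg and on none at 18 µg, and was at least 1.34-fold higher (adjusted p = 0.204). Platelet factor 4 (Pf4), stored in platelet granules, was at -0.07, 0.23, 0.02, 0.06 and -0.08 against -0.56, -0.27, -0.69, -0.75 and -0.79, a smaller but tighter difference of 0.64 (SE 0.11, adjusted p = 0.0879).

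Upstream cytokines and their receptors had smaller differences. In the interleukin-6 and STAT3 list, 4 of 16 genes were higher at an unadjusted p under 0.05 and none was lower. Timp1, an inhibitor of matrix metalloproteinases, led it with -1.81, -0.84, -0.30, 2.07 and 0.68 against -2.43, -2.3, -2.05, -2.65 and -2.46 (difference 2.34, SE 0.55, adjusted p = 0.168). All high dose mice were above the low dose, again with replicate 4 on top. Interleukin-6 itself (Il6) differed by 0.93, its feedback inhibitor Socs3 by 0.39 and Il11 by 0.29 (adjusted p = 0.299, 0.348 and 0.349). In the interleukin-1 list 4 of 18 were higher at that threshold, among them the receptor antagonist Il1rn by 0.40, the decoy receptor Il1r2 by 0.62, the binding protein Il18bp by 0.58 and the alarmin Il33 by 0.56, with adjusted p between 0.255 and 0.342. The NF-kB list had 18 of 20 members higher and 5 at an unadjusted p under 0.05, with a median of 0.24. Its leading genes were Tnf (0.43), the subunit Relb (0.40), the receptor Tlr2 (0.29) and the atypical inhibitor Nfkbiz (0.59), with adjusted p from 0.24 to 0.315. For each of Tnf, Relb, Tlr2 and Nfkbiz the doses overlapped.

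Complement had 4 of 20 genes higher at an unadjusted p under 0.05 and none lower, with a median of 0.12, which was 0.21 at the same SD, 0.38 after scale normalization and 0.05 without replicate 4 of 162 µg. Complement factor B (Cfb), a component of the alternative pathway, was at 3.80, 4.24, 4.08, 4.56 and 4.43 against 2.75, 3.07, 3.68, 3.37 and 3.56, without overlap (difference 0.94, SE 0.19, adjusted p = 0.118). The central component C3 was at 1.59, 2.49, 2.39, 3.01 and 2.46 against 1.03, 1.35, 1.85, 1.42 and 1.16 (difference 1.03, SE 0.23, adjusted p = 0.152). Replicate 1 of the high dose was the only array of C3 inside the low dose range. The classical protease C1ra differed by 0.31 and properdin (Cfp) by 0.44.

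Genes of phagocytes and of matrix turnover pointed mostly upwards. Of 23 genes of macrophage activation and the lysosome, 6 were higher at an unadjusted p under 0.05 and none lower. The scavenger receptor Msr1 was at -0.83, -1, -0.73, 0.39 and -0.30 against -0.96, -1.35, -1.33, -1.65 and -1.24, and differed by 0.81 (SE 0.23, adjusted p = 0.209). Its doses were separate except for replicate 2 of 162 µg, just below replicate 1 of 18 µg. The glycoprotein Gpnmb differed by 0.43 (adjusted p = 0.186) and the lysosomal proteases Ctsk and Ctsz by 1.00 and 0.59 (both with adjusted p = 0.251). Of 14 Fc gamma receptor genes and adaptors 13 were higher, 5 of them at that threshold, with a median of 0.37 (0.23 without replicate 4 of 162 µg), led by the receptors Trem2 (0.58) and Clec5a (0.28). In the matrix remodelling list 7 of 24 were higher at that threshold, among them the urokinase receptor Plaur by 0.50 (adjusted p = 0.171) and the metalloproteinase Mmp3 by 0.93 (adjusted p = 0.183). Collagen chains had 3 of 17 lower and none higher at that threshold, yet 12 of the 17 had a positive difference and the median was 0.04. At the same SD 2 were lower at that threshold, and 1 after scale normalization. The basement membrane chains Col4a4 and Col4a3, which assemble in the same trimer, were lower by 0.66 and 0.81 (adjusted p = 0.152 and 0.169), and Col14a1 by 0.26. Col4a4 separated fully, at 1.26, 1.38, 1.79, 1.72 and 1.96 against 2.22, 2.24, 1.98, 2.52 and 2.45.

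Among stress genes, heme oxygenase 1 (Hmox1), which degrades heme, was at -1.38, -1.01, -0.74, -0.20 and -0.66 at 162 µg and at -1.77, -1.65, -1.69, -1.70 and -1.40 at 18 µg. All high dose mice were above the low dose, narrowly so for replicate 1, and the difference was 0.84 (SE 0.18, adjusted p = 0.145). Of 25 Nrf2 targets, 5 were higher and 3 lower at an unadjusted p under 0.05, with a median of 0.09. At the same SD 5 were higher and 1 lower at that threshold, and after scale normalization 6 were higher and none lower. Pgd of the pentose phosphate pathway was higher by 0.38, whereas extracellular superoxide dismutase (Sod3) and the glutathione transferase Gsta3 differed by -0.43 and -0.49. Of 13 metallothioneins and zinc transporters 4 were higher and none lower at that threshold, with a median of 0.08, and 1 was higher and 1 lower without replicate 4 of 162 µg. Metallothionein 2 (Mt2), which binds zinc, was at -2.50, -1.86, -2.08, -0.13 and -1.42 against -2.74, -2.32, -2.71, -3.11 and -2.86 (difference 1.15, SE 0.35, adjusted p = 0.228). Replicate 4 was far above the rest, and replicate 1 overlapped with the low dose. Of 21 heat shock and cold-inducible genes 3 were higher and 1 lower at an unadjusted p under 0.05: the cold-inducible RNA-binding protein Rbm3 differed by 0.35 (SE 0.07, adjusted p = 0.137) and the small chaperone Hspb1 by -0.28 (adjusted p = 0.207). Of 20 genes of endoplasmic reticulum stress 17 were higher, 4 of them at that threshold, with a median of 0.18. The array medians of this list overlapped, at -1.11 to -0.21 for 162 µg and -1.1 to -0.72 for 18 µg. It lay below the reference and was not examined under scaling.

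In the clock list, 4 of 20 genes were higher and 2 lower at an unadjusted p under 0.05, and the median was 0.05. Bhlhe40, a transcriptional repressor of the clock that also responds to many stimuli, was at 0.07, -0.39, -0.58, 0.50 and 0.03 against -0.70, -1.10, -1.01, -1.04 and -1 (difference 0.89, SE 0.17, adjusted p = 0.113). The groups did not overlap, and vehicle averaged -0.84 and 54 µg -0.39. The activator Arntl differed by -0.67, the repressor Per2 by 0.30 and the output gene Dbp by 0.82 (adjusted p = 0.201, 0.211 and 0.219). Arntl and Dbp varied more among the vehicle mice, with an SD of 1.02 and 1.25, than their doses differed. The hour at which lungs were taken is not given in the sources used here. In cholesterol synthesis 20 of 25 genes were higher, 6 of them at an unadjusted p under 0.05, with the synthesis enzyme Lss at 0.50 and the oxysterol enzyme Ch25h at 1.18 (adjusted p = 0.166 and 0.179).

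DNA replication genes were higher throughout without scaling. All 30 genes tested were higher at 162 µg, 23 of them at an unadjusted p under 0.05, with a median of 0.46. DNA ligase 1 (Lig1), which joins Okazaki fragments, was at -1.74, -1.74, -2.20, -1.61 and -1.62 against -2.25, -2.16, -2.48, -2.86 and -2.45 (difference 0.66, SE 0.14, adjusted p = 0.152). Replicate 3 of 162 µg fell below replicate 2 of 18 µg, and the other high dose mice lay above. The helicase subunit Mcm5 differed by 0.60 (SE 0.13, adjusted p = 0.16) and thymidylate synthase (Tyms) by 0.48 (SE 0.12, adjusted p = 0.185), both without overlap. These genes all lay below the reference pool, as did the genes with mostly positive differences described at the outset. With all arrays scaled to the same SD, 27 of the 30 were higher, 10 at an unadjusted p under 0.05, with a median of 0.25, and with scale normalization 26 were higher and 3 passed that threshold (median 0.16).

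Mitosis genes were more dependent on scaling. All 31 were higher without scaling, 7 at an unadjusted p under 0.05, with a median of 0.32, which was 0.05 at the same SD and -0.05 after scale normalization. Topoisomerase Top2a was at -2.06, -2.35, -2.39, -2.23 and -1.97 against -2.48, -2.72, -2.95, -3.11 and -2.51, without overlap (difference 0.56, SE 0.13, adjusted p = 0.169). The checkpoint protein Mad2l1, the spindle factor Tpx2 and Cdca8 of the chromosomal passenger complex differed by 0.55, 0.46 and 0.38 (adjusted p from 0.234 to 0.257), and Tpx2 by -0.05 after scale normalization.

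Among the 12 genes named for a higher level by their unadjusted p, some belong to none of these themes. Tspan4, a tetraspanin of the cell surface, was at -0.22, 0.08, -0.21, 0.18 and -0.16 against -0.79, -0.64, -0.83, -0.89 and -0.60, with the smallest p of the 12 (difference 0.69, SE 0.10, adjusted p = 0.0821). Its vehicle mice ranged from -1.33 to 0.35 and so spanned both doses. Ly6f, a small surface protein of the Ly6 family, was at 0.42, 1.81, 2.35, 3.28 and 2.67 against 0.03, 0.38, 0.06, 0.14 and 0.31 (difference 1.92, SE 0.40, adjusted p = 0.145), and its high dose mice had the same order as in Saa1, with replicate 1 lowest and replicate 4 highest. The glycosyltransferase Galnt6, the kinetochore scaffold Knl1 and BC055324 differed by 0.56, 0.42 and 0.55 (adjusted p = 0.0979, 0.107 and 0.145), and by 0.41, 0.22 and 0.08 after scale normalization. All 12 were chosen for groups that do not overlap, so their separation is no finding.

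The 12 genes named for a lower level were chosen in the same way, so their separation and tightness are no finding either. Frmpd1, a scaffold protein with FERM and PDZ domains, was at 0.96, 1.13, 1.40, 1.43 and 1.17 at 162 µg and at 1.84, 2.00, 2.02, 2.00 and 1.93 at 18 µg (difference -0.74, SE 0.10, adjusted p = 0.0821). The 54 µg mean was 1.58 and the vehicle mean 1.92. Nxph3, a secreted ligand of neurexins, was at 2.26, 2.18, 2.54, 2.3 and 2.82 against 3.24, 3.47, 3.29, 3.31 and 3.12 (difference -0.87, SE 0.12, adjusted p = 0.0821). Vehicle and 54 µg, at 3.05 and 3.04, were close to the low dose for Nxph3. After scale normalization the differences of Frmpd1 and Nxph3 were -0.52 and -0.45 (adjusted p = 0.362 and 0.652).

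The other lower genes by this rule included signalling and matrix genes. Wnt7a, a Wnt ligand, was at 1.12, 0.75, 0.90, 0.94 and 1.07 against 1.32, 1.76, 2.20, 1.94 and 1.80 (difference -0.85, SE 0.14, adjusted p = 0.0879). Pde8b, which hydrolyses cyclic AMP, was at 1.73, 1.61, 2.08, 1.60 and 1.48 against 2.71, 2.25, 2.46, 2.45 and 2.63 (difference -0.80, SE 0.12, adjusted p = 0.0821), with vehicle midway at 2.1. The airway anion transporter Slc26a9 differed by -0.87, the collagen galactosyltransferase Colgalt2 by -0.81, the tetraspanin Tspan2 by -0.73, Cped1 by -0.72, the tendon transcription factor Scx by -0.68 and the junction scaffold Magi1 by -0.55, all with adjusted p = 0.0879. After scale normalization Tspan2 was at -0.15 (adjusted p = 0.914), Slc26a9 at -0.42, Colgalt2 at -0.52, Pde8b at -0.53 and Myom3 at -0.26. The sialidase Neu2 and the sarcomere protein Myom3 differed by -0.48 and -0.50, both with adjusted p = 0.0821. In Neu2 the 5 mice of the high dose lay between 0.65 and 0.83 and those of the low dose between 1.07 and 1.33.

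**Figure D3:**
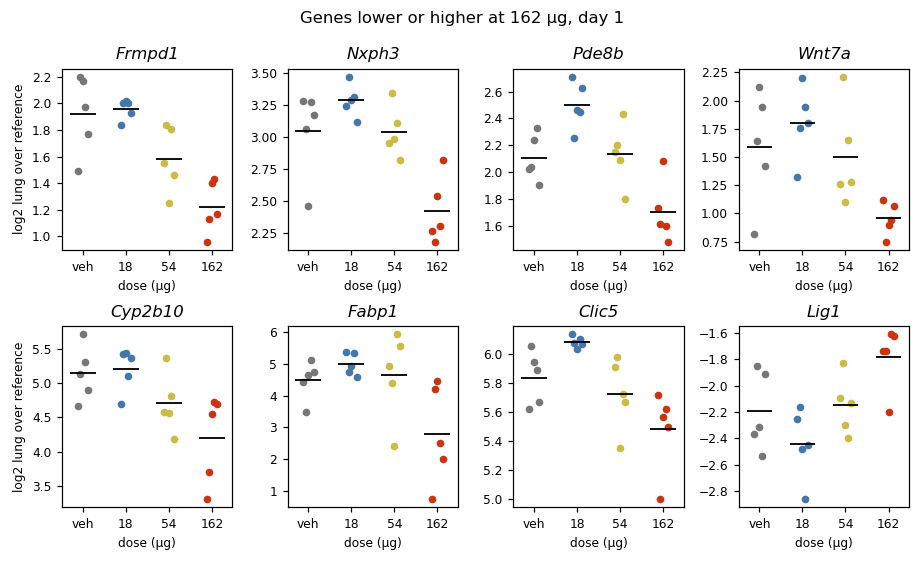
Log2 lung over reference (vertical axes, 1 scale per panel, not starting at 0) of 8 genes on day 1 in vehicle (veh) and at 18, 54 and 162 µg of NRCWE-025, with 1 point per mouse and a bar at the mean of 5. Frmpd1, Nxph3, Pde8b, Wnt7a, Cyp2b10, Fabp1 and Clic5 are lower and Lig1 higher at 162 than at 18 µg, with differences of -2.21 (Fabp1) to 0.66 (Lig1).

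Without scaling, more xenobiotic enzymes and Wnt, BMP and Notch genes were lower than higher. Of 29 cytochrome P450 and related genes, 9 were lower and 1 higher at an unadjusted p under 0.05, with a median of -0.23, which was 0 once arrays were scaled to the same SD and -0.15 without replicate 4 of 162 µg. Cyp2b10, a drug-metabolising P450, was at 3.31, 3.70, 4.55, 4.72 and 4.70 against 4.70, 5.42, 5.44, 5.10 and 5.37 (difference -1.01, SE 0.27, adjusted p = 0.199). Replicates 1 and 2 of the high dose were the lowest, and replicates 4 and 5 reached the bottom of the low dose range. Cyp3a13 and Cyp2e1 differed by -0.48 and -0.51, and Cyp1b1, an enzyme of estrogen and arene metabolism, by 0.39 (adjusted p = 0.185, 0.237 and 0.255). In the Wnt, BMP and Notch list 4 of 26 were lower and 1 higher at an unadjusted p under 0.05, and the median was -0.13, or -0.05 at the same SD and -0.02 after scale normalization. Its leading genes differed without scaling: the ligand Wnt2 by -0.73, the Notch feedback gene Nrarp by -0.65, the secreted Wnt inhibitor Wif1 by -0.60 and the inhibitor Sfrp1 by 0.38, with adjusted p between 0.201 and 0.288. Cyp2b10 was at -0.33 and Wnt2 at -0.10 after scale normalization.

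Most lists of lung cell type markers had medians whose size or sign differed between scalings. In whole lung, fewer cells of a type and less RNA per cell cannot be told apart. Of 7 alveolar type 1 cell markers 5 were lower at an unadjusted p under 0.05 and the median was -0.42, but it was 0.05 with the arrays at the same SD and 0.27 after scale normalization. The chloride channel protein Clic5, at 5.72, 5.00, 5.57, 5.62 and 5.50 against 6.14, 6.08, 6.04, 6.11 and 6.07, had a difference of -0.61 (SE 0.12, adjusted p = 0.113) without scaling and 0.22 after scale normalization. Akap5, Emp2 and Hopx, at -0.66, -0.47 and -0.42 without scaling, were at 0.27, 0.09 and 0.27 after scale normalization, so these markers had no direction that held.

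Of 11 alveolar macrophage markers 8 were lower without scaling, 3 of them at an unadjusted p under 0.05, and 3 were higher, 2 of them at that threshold. Fabp1, a fatty acid binding protein, gave the largest negative difference among genes at an unadjusted p under 0.05, -2.21 (SE 0.59, adjusted p = 0.197). It was at 0.74, 4.20, 4.46, 2.52 and 2.00 against 5.37, 4.74, 4.94, 5.33 and 4.58. The high dose lay below the low dose throughout, with replicate 1 lowest. Siglecf, a surface lectin of resident alveolar macrophages and eosinophils, differed by -0.67 (adjusted p = 0.252), whereas the protease Ctsk and the integrin Itgax differed by 1.00 and 0.40. The list median of -0.33 turned to 0.11 at the same SD and to 0.25 after scale normalization. Neutrophil markers, 11 in all, had none higher and 1 lower at an unadjusted p under 0.05 with a median of -0.10. Under either scaling 2 were higher and none lower, with a median of 0.19 at the same SD, and leaving out 1 array at a time without scaling gave medians from -0.19 to 0.10. Monocyte and interstitial macrophage markers had 2 of 11 higher at that threshold, led by Ms4a6d at 0.82 (adjusted p = 0.274), and a median of 0.06, which was 0.23 at the same SD, 0.42 after scale normalization and from -0.03 to 0.12 with 1 array left out. Fibroblast markers had 4 of 10 lower at that threshold, among them nephronectin (Npnt) at -0.74 and lumican (Lum) at -0.53, with a median of -0.35 that was -0.04 at the same SD and -0.20 without replicate 4 of 162 µg. Endothelial and surfactant genes had medians of -0.14 and -0.08, which were 0.28 and 0.24 at the same SD, with 2 of 12 and 1 of 14 lower at that threshold. Interferon-stimulated genes had 0 of 24 in either direction at that threshold by limma and a median of 0.16, which was -0.04 without replicate 4 and 0.28 without replicate 3 of 162 µg.

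**Figure D4:**
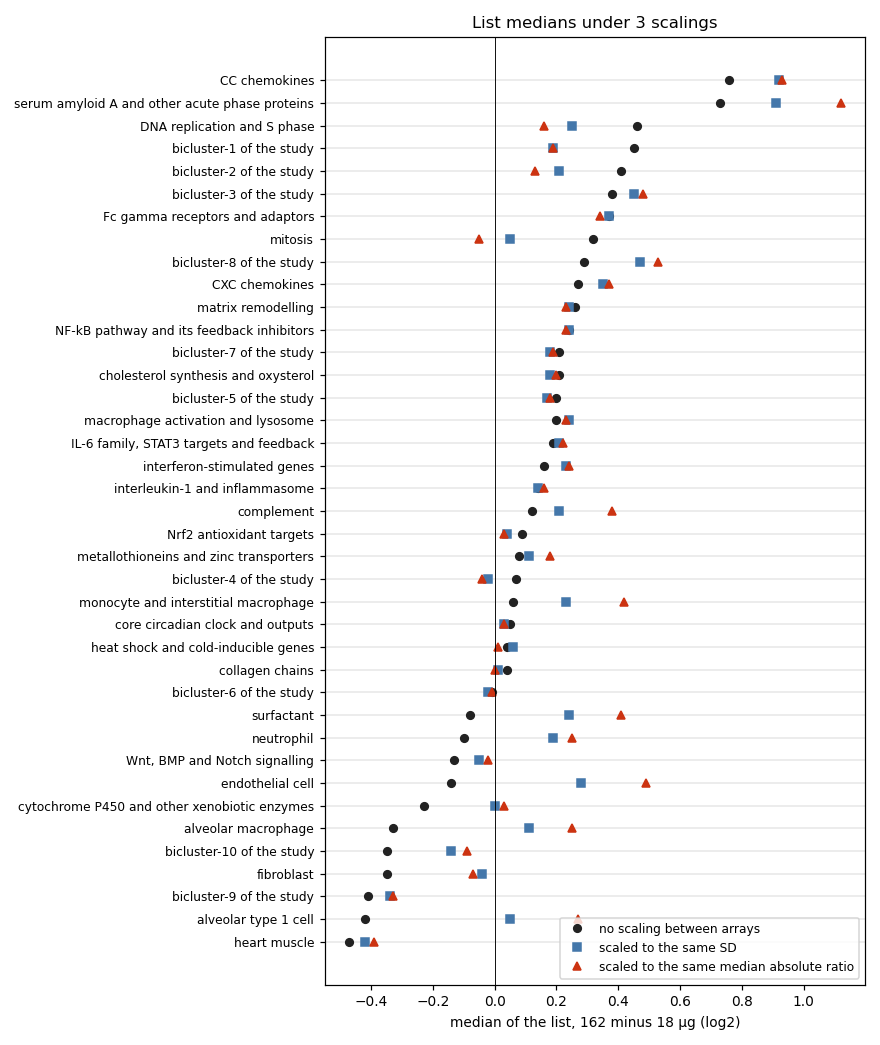
Median difference between the doses (162 minus 18 µg, log2, horizontal axis) of each of 39 gene lists, without scaling between arrays (circles), with arrays scaled to the same SD (squares) and to the same median absolute ratio (triangles). CC chemokine and acute phase lists stay at 0.73 or more under all 3, while lists of type 1 cells, endothelium, alveolar macrophages, neutrophils and surfactant cross 0.

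The study had derived 10 biclusters, gene sets that move together in lung disease models of other series. By the counts at an unadjusted p under 0.05, bicluster-2 had 10 of 18 genes higher, bicluster-3 9 of 17, bicluster-7 8 of 20, bicluster-1 7 of 17, bicluster-8 5 of 15 and bicluster-5 10 of 35 with 1 lower. Bicluster-10 ran the other way, with 9 of 16 lower and a median of -0.35. Medians without scaling were 0.41, 0.38, 0.21, 0.45, 0.29 and 0.20 for the upward sets in that order. Without replicate 4 of 162 µg bicluster-1 was at 0.25, bicluster-3 at 0.24 and bicluster-5 at 0.12, and without replicate 1 of 18 µg bicluster-5 was at 0.13. At the same SD bicluster-3 had a median of 0.45 and bicluster-8 of 0.47, whereas biclusters 1 and 2 were at 0.19 and 0.21 and bicluster-10 at -0.14. After scale normalization bicluster-2 had 4 higher at that threshold and a median of 0.13. Bicluster-10 then had 2 lower and a median of -0.09. Without scaling biclusters 4 and 6 had medians of 0.07 and -0.01, with 1 of 14 higher and 1 of 23 in each direction, and bicluster-9 had 2 of 17 lower. The bicluster-4 median was -0.02 at the same SD and -0.04 after scale normalization.

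The 54 µg group lay between the other doses for most genes at an unadjusted p under 0.05. Its mean was between those of 18 and 162 µg in 1086 of the 1215 genes higher at an unadjusted p under 0.05 and in 1045 of the 1171 lower ones. The median gene had covered 0.40 of the way from the low to the high dose in the first set and 0.38 in the second. Vehicle sat at 0.30 and 0.23 of the same way, as a median, so for many of these genes the low dose was further from the high dose than vehicle was. These genes were picked on the end points, which pulls any other group inwards, so no test is attached.

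Slides are the batches that could be compared. The 10 arrays came from 7 slides, each scanned on its own day, and 3 slides held both doses. The difference within a slide was 1.07, 4.20 and 7.60 for Saa3, 0.47, 1.25 and 2.55 for Ccl12, 0.39, 0.64 and 1.2 for Hmox1, -0.98, -1.29 and -0.83 for Nxph3 and -0.87, -0.86 and -0.50 for Frmpd1. Saa3 kept its sign on each slide, which is no check. Its groups overlapped only between replicate 1 of 162 µg and replicate 5 of 18 µg, and these lay on different slides. For Ccl12, Hmox1, Nxph3 and Frmpd1 the groups did not overlap, so their sign on each slide was fixed beforehand and is no check. The same holds for Fabp1, with -4.62, -0.54 and -2.05. Of the 2386 genes at an unadjusted p under 0.05, 1867 had the same direction on the 3 slides. These genes were picked on a difference that includes the same arrays, which favours a shared sign, so this count is no check either. Some genes changed sign, among them Ch25h with -0.39, 0.50 and 2.36 and Il33 with -0.01, -0.09 and 1.58.

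The same contrast of doses was available for NRCWE-030 on day 1 and for NRCWE-025 on day 28, with arrays of their own. For NRCWE-030 90 of 18747 genes (0.48%) passed the adjusted threshold and 1709 (9.12%) the unadjusted one, 5.92% of genes being higher and 3.2% lower. For NRCWE-025 on day 28, 0 of 18740 passed with limma and 594 (3.17%) had an unadjusted p under 0.05, 1.49% higher and 1.68% lower. Medians of the acute phase list were 0.85 and 0.02 in these contrasts, those of the CC chemokines 0.94 and 0.18, and those of DNA replication 0.34 and -0.11. Saa3 differed by 6.59 for NRCWE-030 and by 0.09 on day 28, next to 5.41 here.

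The difference between the materials was tested as an interaction and passed for 0 of 18726 genes with limma, with 1126 (6.01%) below an unadjusted p of 0.05 (2.24% with the higher value for NRCWE-025, 3.78% with the lower) and a smallest adjusted p of 0.796. The 5 genes with the smallest p ran in opposite directions, but ranking by this difference favours opposite signs, so that is no finding. Gpx7, a peroxidase of the endoplasmic reticulum, differed by -0.28 for NRCWE-025 and 0.41 for NRCWE-030. In the same order Ugcg differed by 0.14 and -0.35, Rprd1a by -0.40 and 0.15, Nrgn by 0.14 and -0.62 and Tpd52l1 by 0.18 and -0.39. The difference between days passed for 0 of 18719 genes, with 2149 (11.5%) below an unadjusted p of 0.05 (6.86% with the higher value on day 1, 4.62% with the lower) and a smallest adjusted p of 0.288. Its leading genes were chosen in the same way. Frmpd1 differed by -0.74 on day 1 and 0.21 on day 28, and Pf4 by 0.64 and -0.12. Wdr12, a ribosome assembly factor, differed by 0.30 and -0.27. The potassium channel Kcnn1 differed by 0.37 and -0.34 and the glutamate transporter Slc1a1 by -0.59 and 0.25. Without replicate 1 of 162 µg on day 1, Saa1 and Saa3 passed the test between days (adjusted p = 0.0128 and 0.0163). That array was the lowest of its group for both genes, so this is no support for a call.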

How the data were processed

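Whole lung RNA of 10 mice was measured on Agilent 2-colour arrays. The deposited scanner files hold, as a linear intensity, the median signal of each spot and that of the background around it, flags of 0 or 1 for outlying spots and for spots well above background, and a log10 ratio of Cy5 over Cy3 that the scanner software had corrected and normalized. The authors made the log2 values of the deposited series matrix by LOWESS within each array. The version of Agilent Feature Extraction is not given in the sources used here. The log2 ratios were recomputed from the spot intensities with limma 3.58.1 in R 4.3.3 (statmod 1.5.0, data.table, version 1.17.8), and figures were drawn with matplotlib 3.10.9 in Python 3.11.15. Of 45018 spots per array 43379 were not controls, and non-uniform and population outlier spots were left out. Local backgrounds marked as outliers by the scanner software were replaced by the array's median, since normexp otherwise failed on 1 of the 10 arrays, and normexp with an offset of 50 and loess within array followed, with no scaling between arrays. Spots of a probe, and probes of a symbol, were combined by the median. Of 41174 probes, 27484 (66.8%) had 1 symbol in RefSeq for GRCm38.p6, used for names and promoters only, which gave 18753 symbols. The 21 with no value on at least 1 of the 10 arrays were left out.

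Groups came from the titles. A limma fit of the 10 arrays gave two-sided moderated tests, with p-values adjusted by Benjamini-Hochberg over all genes and a threshold of 0.05, and interaction contrasts tested materials and days. P-values weigh a difference against the spread between arrays within a group, pooled over the groups of the fit. Every array held 1 mouse, so this spread holds differences between mice and between slides together. The script was tested on simulated data. Named genes were the 12 per direction with the smallest p whose groups did not overlap and which were well above background on every array of at least 1 dose, up to 4 genes with the smallest p of each list, and the 5 with the smallest p of each interaction, and some of these are not reported here. A fold "at least" compares the brighter dose's mean Cy5 signal with the dimmer dose's mean of, per array, the probe's own signal or the lowest signal well above background, whichever was higher. Members and lists were chosen with earlier results of these data known, and the biclusters are the study's. The alternatives were other background corrections, scalings, filters, blocks, groups in the fit and left-out arrays. The number of arrays limits the precision.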

Additional observations from a re-analysis of the deposited data

Results flagged for a closer look

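Within each dose, the lowest or highest of the 5 arrays was set against the other 4 by Dixon's gap for each named gene and each list median, 272 groups in all, of which 23 held an array beyond the critical value of 0.71 (13 at 162 µg, 10 at 18 µg). Chance gives about 1 in 20 such groups, and genes of a list are not independent.

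Replicate 4 of 162 µg was the highest of its dose in the median of CXC chemokines (1.35, the others 0.23 to 0.54), Fc gamma receptors (1.1, 0.08 to 0.31), neutrophil markers (2.55, 0.71 to 1.24), interferon-stimulated genes (1.34, 0.29 to 0.48), bicluster-7 (0.14, -0.13 to -0.06), bicluster-9 (0.50, 0.11 to 0.18) and heart muscle markers (0.36, -0.05 to 0.06), and the lowest in Cped1 (-0.08, 0.27 to 0.41). Replicate 1 of 162 µg was the lowest in Ccl17 (2.43, 3.63 to 3.83) and in Ctsk (0.96, 2.49 to 2.78), and the highest in Cxcl1 (-0.20, -2.91 to -2.17). Replicate 3 of 162 µg was the highest in Magi1 (0.90, 0.63 to 0.69) and the lowest in Lig1 (-2.20, -1.74 to -1.61).

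At the low dose, replicate 2 of 18 µg had the heart muscle median of 3.08 (the others -0.07 to 0.09) and a bicluster-9 median of 4.09 (-0.07 to 0.16). Replicate 1 of 18 µg was the highest in Bhlhe40 (-0.70, -1.1 to -1) and in the matrix remodelling median (-0.26, -0.48 to -0.42), and the lowest in Ctsk (0.52, 1.41 to 1.63), Col4a3 (2.21, 2.95 to 3.16) and the monocyte median (0.67, 0.84 to 0.90). Replicate 4 of 18 µg was the lowest in Cxcl1 (-4.89, -3.90 to -3.57) and Il6 (-2.06, -1.32 to -1.04), and replicate 5 in Itgax (2.42, 2.74 to 2.81).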

How the results depend on the processing

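The count of 0 called genes held without background replacement, without background correction, with the deposited log2 values and with a filter on dim probes. It also held with the brightest probe, both scalings, array weights and a robust fit. The slide as a fixed block gave 0 too, but it compares doses only within the 3 slides that held both, so that 0 says little. The count was 1 with the scanner's log ratio, 107 with the slide as a random block (correlation 0.389), 58 with 54 µg and vehicle in the fit, 66 with all 14 groups and 35 for the slope on log3 dose. Leaving out each array in turn gave 0 to 21, with 21 without replicate 1 of 162 µg and 1 without replicate 5. The test between days gave 0 to 2, with 2 without replicate 1 of 162 µg on day 1 and 1 without replicate 1 of 162 µg on day 28, and the test between materials gave 0 in all settings. The cause was not tested. Scaling to the same SD was chosen after seeing the data. Of the values of single genes under an alternative, 2623 kept their direction and side of the threshold, 99 passed it newly and 7 reversed: after scale normalization Tpx2 was at -0.05, Clic5 at 0.22, Akap5 at 0.27, Emp2 at 0.09 and Hopx at 0.27, at the same SD Hopx was at 0.05, and without background replacement Itgax was at -0.14. Of the list medians, 903 moved by less than the spread between mice and 33 by more. Among genes at an unadjusted p under 0.05 the share higher at 162 µg was 50.9%, 57.7% after scale normalization and 54.2% at the same SD. Genes not well above background in a dose have only a bound there. The replicate numbers follow accession order and pair no mice, so arrays were not paired by them. Slides that held both doses entered as the blocks above and as the differences within a slide.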
